A study of Mus musculus with 24 samples.

Results

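The 10 genes described here, Lyve1, Timd4, Folr2, Cd163, Mrc1, Cbr2, Cx3cr1, Adgre1, Retnla and Chil3, are commonly used to recognize tissue-resident or alternatively activated macrophages. They were chosen by name and matched by symbol to the Ensembl identifiers of the count table, where all 10 of 10 were found among 41388 gene identifiers, and all 10 passed the filter on low counts at each time point, Chil3 with 3, 3 and 2 of 4 control hearts at the minimum of 10 reads on D10, D15 and D21. They were measured by RNA sequencing of polyadenylated RNA isolated from part of the heart in 24 mice, 4 per group. All mice were wild type males of the Balb/c strain (BALB/cAnNCrl in the study's methods), aged 8 to 10 weeks at immunization. EAM (experimental autoimmune myocarditis) mice received a myosin heavy chain peptide (100 μg) emulsified in supplemented complete Freund's adjuvant (SCFA) on days 0 and 7. Control mice received SCFA emulsified with PBS on the same days, and both groups received pertussis toxin on day 0, so that adjuvant and toxin were common to all hearts. By the study's methods the peptide solution also held DMSO, which the description of the control emulsion does not name. Hearts were taken on D10, D15 and D21 after the first injection.

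Macrophages of the healthy heart are largely long-lived cells, many of them seeded before birth, that clear dying cells and debris and carry scavenger receptors at their surface. In inflammation they are joined by macrophages that arise from blood monocytes. Alternative activation is the program that interleukin-4 and interleukin-13 induce through the transcription factor Stat6, and it is known for the mannose receptor and the secreted proteins encoded by Retnla and Chil3. None of the genes is found only in macrophages: Lyve1 is also a marker of lymphatic endothelium, Cbr2 of airway epithelium, Retnla is made by adipose tissue and airway epithelium, Chil3 by neutrophils and monocytes, and Adgre1 by eosinophils.

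The libraries held 15814863 to 24980864 counted reads each, and 3 reads, the limit that a count of 0 allows, corresponded to 0.107 to 0.197 counts per 1000000 reads (CPM). The values below are CPM after TMM scaling over all 24 libraries. The EAM hearts were selected by the study, as far as possible, for the presence of inflammation, and each p-value measures the spread between hearts within these groups. The 4 D21 EAM libraries carried another library code than the other 20, so that at D21 the code and the disease cannot be told apart. D10 EAM replicate 1 stood apart, with 195 CPM of the leukocyte gene Ptprc against 27.6 to 55.7 CPM in the other 3. The sum of 7 cardiomyocyte genes was 28460 to 34850 CPM in the 12 control hearts and 7521 to 19800 CPM in the D15 EAM hearts. Mitochondrial genes took 3.19% to 4.31% of the reads in the D15 EAM hearts and 6.10% to 7.14% in the D15 controls, without overlap, and the part of either difference in the D15 values was not tested. In bulk tissue, fewer cells of a type and less RNA per cell cannot be told apart.

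In the control hearts all 10 genes were detected in every heart. Per kilobase of exon, Cbr2, which encodes a carbonyl reductase, had the highest level at 28.8 ± 7.6 CPM per kb (SD, n = 12). Folr2 followed with 14.7 ± 2.8, Mrc1 with 11.9 ± 2.2, Lyve1 with 9.43 ± 2.5, Adgre1 with 9.43 ± 2.4, Cd163 with 6.20 ± 1.2, Retnla with 5.76 ± 3.0 and Cx3cr1 with 5.59 ± 1.4 CPM per kb. Timd4 at 1.23 ± 0.35 and Chil3 at 0.618 ± 0.50 CPM per kb were the lowest. In this order the ranges of neighbouring genes overlapped for every pair but one: the lowest value of Cx3cr1, 3.97, was above the highest of Timd4, 1.97 CPM per kb. The place of Retnla depended on the day. It averaged 3.24 CPM per kb in the D10 controls, below Cx3cr1 (5.12), and 8.56 in the D21 controls, above Lyve1 (8.05).

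**Figure D1:**
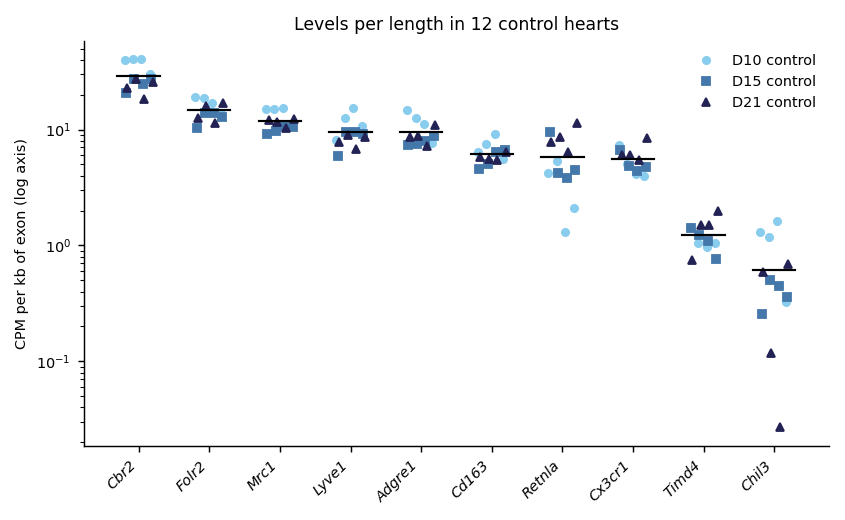
Level of each of the 10 genes in CPM per kilobase of exon (logarithmic axis) in the 12 control hearts, with 1 symbol per heart, shaped by time point, and a bar at the mean. Cbr2 is the highest at 28.8 CPM per kb and Chil3 the lowest and most scattered, down to 0.027 CPM per kb in 1 D21 heart.

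The 10 genes lie on 8 chromosomes of GRCm38 and all are annotated as protein coding. On the plus strand are Mrc1 (chromosome 2, 14229392 to 14332057), Cd163 (chromosome 6, 124304656 to 124330527), Timd4 (chromosome 11, 46810800 to 46844332), Retnla (chromosome 16, 48842551 to 48844461) and Adgre1 (chromosome 17, 57358691 to 57483527). On the minus strand are Chil3 (chromosome 3, 106147554 to 106167564), Lyve1 (chromosome 7, 110850607 to 110863239), Folr2 (chromosome 7, 101839988 to 101857194), Cx3cr1 (chromosome 9, 119901616 to 120069879) and Cbr2 (chromosome 11, 120729489 to 120732114). Folr2 shares 975 exonic bases with genes on the opposite strand, and Cx3cr1 shares 78 exonic bases with its neighbours. The sources used here do not name the strand setting of the counting, so reads of these stretches are uncertain. Of all windows of 75 bases, the read length, in the transcripts of each gene, none of those of 8 genes occurred in a transcript of another gene. The exceptions were Cbr2, with 8.31% shared with Gm11771, and Chil3, with 13% shared with Chil4 and Gm6522.

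Retnla and Chil3 encode the secreted products of alternative activation, and Chil4 is the nearest relative of Chil3. The 250 bases upstream of their RefSeq start sites on GRCm38.p6 are shown because the genes parted in these hearts: Chil3 reached 408 CPM, Chil4 no more than 0.035 CPM, and Retnla 8.35 CPM. Capitals mark matches to either of the motifs searched on both strands, a Stat6-type motif (TTCNNNNGAA) and a PU.1-type motif (GAGGAAGT). They are read 5′ to 3′ on the gene's own strand, from chr16:48842359-48842608 (plus strand) for Retnla, chr3:106167565-106167814 (minus strand) for Chil3 and chr3:106219480-106219729 (minus strand) for Chil4.
Retnla: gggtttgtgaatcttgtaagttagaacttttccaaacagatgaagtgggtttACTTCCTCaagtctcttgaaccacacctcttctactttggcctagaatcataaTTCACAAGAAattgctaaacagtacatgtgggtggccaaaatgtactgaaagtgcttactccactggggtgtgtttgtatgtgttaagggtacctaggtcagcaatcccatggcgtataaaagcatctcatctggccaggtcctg
Chil3: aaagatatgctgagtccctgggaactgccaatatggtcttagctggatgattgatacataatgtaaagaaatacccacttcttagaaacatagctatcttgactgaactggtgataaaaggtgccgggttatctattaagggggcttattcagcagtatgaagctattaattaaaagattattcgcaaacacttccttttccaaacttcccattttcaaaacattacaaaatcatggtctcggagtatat
Chil4: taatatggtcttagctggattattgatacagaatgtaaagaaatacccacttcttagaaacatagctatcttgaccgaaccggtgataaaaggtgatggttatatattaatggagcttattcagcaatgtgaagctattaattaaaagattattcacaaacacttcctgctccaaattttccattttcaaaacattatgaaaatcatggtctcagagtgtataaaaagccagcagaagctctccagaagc
The Retnla stretch holds a match of both motifs, which begin 198 (PU.1-type) and 145 (Stat6-type) bases before the start site, while the letters of neither are found in those of Chil3 and Chil4. In windows of 300 bases, reaching 50 bases past the start site, 6.95% of 32851 RefSeq promoters hold the Stat6-type letters and 3.20% the PU.1-type letters. Among the members, 8 had a promoter entry, and Cbr2, 24 bases past its start site, was the only other with a Stat6-type match. The upstream stretches of Chil3 and Chil4 were identical at 201 of 222 aligned positions (90.5%). Chil4 had 0 reads in 23 of the 24 hearts and 1 read in the remaining heart, the D15 EAM heart with the highest Chil3 count (11483 reads).

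At D10 the question was whether these genes had moved before the main inflammatory phase. None of the 10 was called by edgeR's quasi-likelihood test at a false discovery rate under 0.01 and at least 2-fold, the thresholds of the study, beside 0.0% of 15029 genes tested. In the study's own fit a group of genes passed these thresholds at D10. Its methods name edgeR and limma but not the test used, and the reason for the difference was not examined. Adgre1 and Chil3 had an unadjusted p under 0.05, beside 9.71% of all genes tested in the same direction, and neither DESeq2 nor limma-voom called any member. With all 12 control hearts as the comparison Chil3 was called (5.0, adjusted p = 9.6e-04). Of the members, 9 had a log2 fold change above 0, with a median over the 10 of 0.27 and a median over all genes tested of -0.01. Chil3 was measured at 108, 1.58, 11.99 and 2.75 CPM in the EAM hearts and at 2.13, 1.93, 2.63 and 0.53 CPM in the controls. The high value belonged to the EAM heart that stood apart, and of the other 3 replicates 2 and 4 lay within or just above the control range. Its log2 fold change of 4.07 ± 1.31 (SE, adjusted p = 0.328) was 1.57 (adjusted p = 0.450) without that heart. Adgre1, a surface receptor of mature mouse macrophages, was at 90.1, 39.0, 62.7 and 44.5 CPM in the EAM hearts against 47.6, 41.1, 36.2 and 24.7 CPM in the controls, and its log2 fold change of 0.64 ± 0.28 (adjusted p = 0.328) was 0.38 without the same heart.

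At D15, 3 of the 10 members rose in EAM hearts, Adgre1, Mrc1 and Chil3, and none fell. Over all genes tested 18.1% were called higher and 12.9% lower. Adgre1 was 5.38-fold higher, Mrc1 2.90-fold and Chil3 238-fold, whereas the remaining 7 had log2 fold changes between -0.13 and 1.002 and were not called. The median over the 10 members was 0.67 and over all genes 0.02 on the log2 scale. The EAM hearts were all above the control hearts for 5 members (Timd4, Folr2, Mrc1, Adgre1 and Chil3), beside 35.6% of all genes tested.

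**Figure D2:**
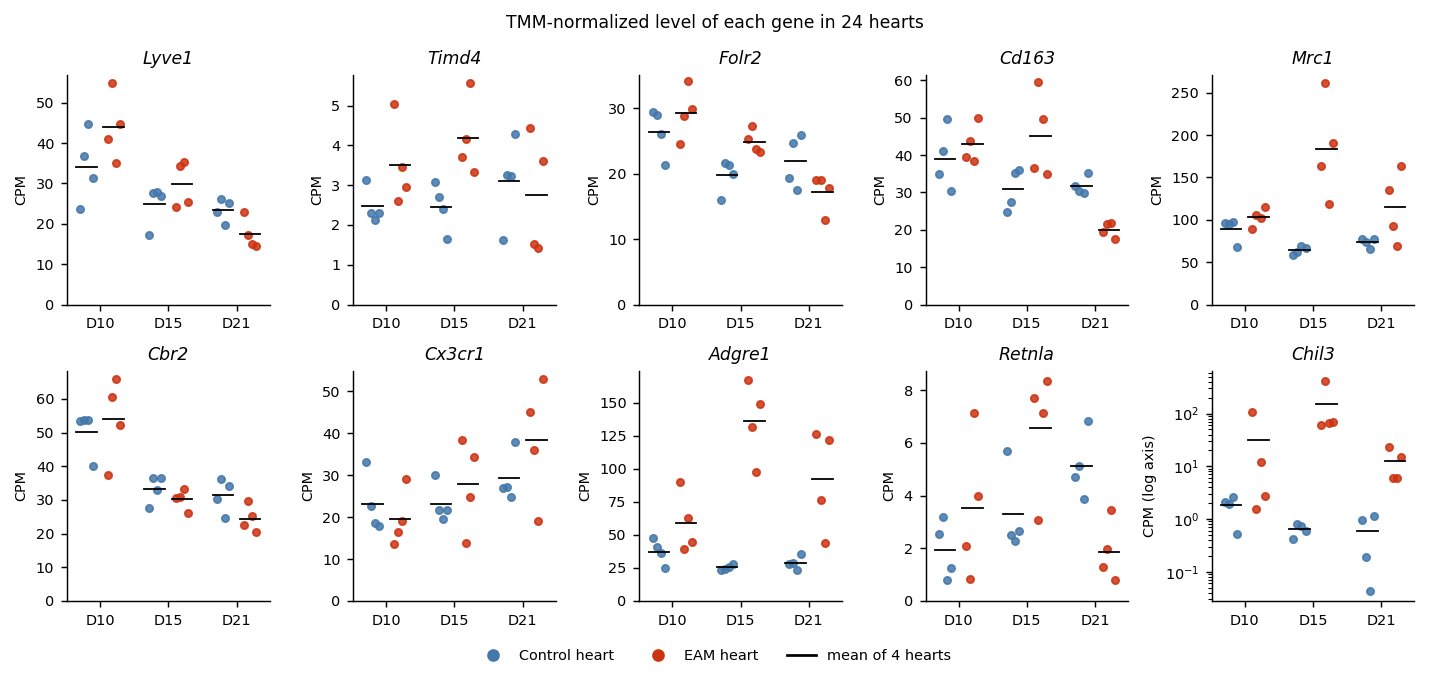
CPM of each of the 10 genes by heart at D10, D15 and D21, with controls in blue, EAM in red and a bar at the mean of 4 hearts. The axes are linear from 0 except for Chil3, which is on a logarithmic axis. At D15 the red points of Mrc1, Adgre1 and Chil3 stand clear of the blue, while those of Lyve1, Cbr2 and Cx3cr1 overlap them. At D21 the red points of Cd163 and Retnla lie below the blue.

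Lyve1 encodes a hyaluronan receptor of resident macrophages and lymphatic vessels. At D15 it measured 24.1, 34.4, 35.3 and 25.4 CPM in the EAM hearts and 17.3, 27.8, 27.8 and 27.0 CPM in the controls. The groups overlapped, and the log2 fold change of 0.27 ± 0.18 did not pass the test (adjusted p = 0.202). Of 5 lymphatic genes tested, Pdpn, also a fibroblast gene, was called higher (log2 fold change 2.59) and Prox1, which cardiomyocytes express too, was called lower (-1.41). Mmrn1 (-0.42, adjusted p = 0.00130) and Reln (-0.49, adjusted p = 0.0215) were below the 2-fold threshold, Flt4, the receptor of lymphatic growth factors, averaged 42.0 CPM with EAM against 39.8 CPM without (adjusted p = 0.621), and the median of the 5 was -0.42. The summed level of the 6 lymphatic genes was 158 to 184 CPM in EAM and 206 to 218 CPM in control hearts. Prox1 held most of the control sum, with a mean of 138 CPM against 51.3 CPM with EAM, whereas Pdpn averaged 10.2 CPM without and 60.9 CPM with EAM. The lower sum thus follows Prox1 and is no measure of lymphatic RNA. The part of lymphatic vessels in the Lyve1 level was not tested.

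Timd4 encodes a receptor for phosphatidylserine on dying cells. It was low throughout, with 22 to 130 reads per heart. At D15 it measured 3.70, 4.15, 5.57 and 3.33 CPM in the EAM hearts and 3.08, 2.69, 2.39 and 1.65 CPM in the controls. The groups did not overlap, but the log2 fold change of 0.78 ± 0.22 missed both thresholds (adjusted p = 0.0105). Folr2, the folate receptor beta, measured 25.2, 27.2, 23.7 and 23.4 CPM in the EAM hearts and 15.97, 21.6, 21.4 and 19.9 CPM in the controls at D15. It did not overlap either and was not called, with a log2 fold change of 0.35 ± 0.11 (adjusted p = 0.0132).

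Cd163 and Mrc1 are scavenger receptors, the first for complexes of haptoglobin with hemoglobin and the second, the mannose receptor, for glycoproteins. At D15 Cd163 was at 36.6, 59.4, 49.6 and 34.97 CPM in the EAM hearts and at 24.8, 27.4, 35.1 and 36.0 CPM in the controls, which overlapped, with a log2 fold change of 0.57 ± 0.19 that was not called (adjusted p = 0.0211). Mrc1 was at 164, 261, 118 and 190 CPM in the EAM hearts against 58.3, 61.6, 68.6 and 67.3 CPM in the controls. Every EAM heart was above every control, and the log2 fold change was 1.54 ± 0.21 (adjusted p = 1.3e-04). Haptoglobin itself (Hp) rose from a mean of 8.69 to 498 CPM, a log2 fold change of 5.86 (adjusted p = 1.5e-06).

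Cbr2 and Cx3cr1, the receptor of the chemokine fractalkine, did not pass the test on any day. Cbr2 at D15 was at 30.5, 30.8, 33.1 and 26.2 CPM in the EAM hearts and at 27.5, 36.5, 33.0 and 36.4 CPM in the controls, with overlapping groups and a log2 fold change of -0.13 ± 0.11 (adjusted p = 0.280). Airway epithelial genes, 5 in the list, summed to no more than 1.71 CPM in any heart. Cx3cr1 at D15 was at 38.3, 13.8, 24.8 and 34.2 CPM in the EAM hearts and at 30.0, 21.8, 19.6 and 21.6 CPM in the controls. The EAM hearts spread on both sides of the controls, and the log2 fold change was 0.27 ± 0.28 (adjusted p = 0.407). Its ligand gene Cx3cl1 averaged 23.2 CPM with EAM and 20.6 CPM without (adjusted p = 0.323).

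Adgre1 at D15 was at 167, 132, 98.0 and 149 CPM in the EAM hearts and at 23.6, 24.5, 26.0 and 28.4 CPM in the controls. Every EAM heart was far above every control, and the log2 fold change was 2.43 ± 0.16 (adjusted p = 1.3e-06). Its size was close to that of Csf1r, the receptor for the macrophage growth factor (2.47 ± 0.13, adjusted p = 2.9e-07). The sum of 7 eosinophil genes was 2.78 to 7.03 CPM in the same EAM hearts and 0.059 to 0.177 CPM in the controls.

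Retnla at D15 was at 7.71, 3.09, 7.11 and 8.35 CPM in the EAM hearts and at 5.69, 2.52, 2.29 and 2.65 CPM in the controls. In the EAM group 3 hearts lay above every control, but replicate 2 lay within the control range and control replicate 1 stood above the other controls. The log2 fold change of 1.002 ± 0.37 was not called (adjusted p = 0.0339). It was called without control replicate 1 (1.41, adjusted p = 0.00495) or without EAM replicate 2 (1.27, adjusted p = 0.0035).

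Chil3 at D15 was at 60.9, 408, 66.5 and 69.97 CPM in the EAM hearts and at 0.42, 0.82, 0.73 and 0.59 CPM in the controls, where it rested on 8 to 14 reads per heart. The EAM heart with the lowest Retnla value had the highest Chil3 value, and all EAM hearts were far above the controls. The log2 fold change was 7.90 ± 0.93 (adjusted p = 5.3e-05), and without EAM replicate 2 it was 6.72 (adjusted p = 1.0e-08). The sum of 7 neutrophil genes was 536 to 855 CPM in the EAM hearts against 16.02 to 79.1 CPM in the controls, and that of 10 genes of recruited monocytes was 3896 to 6488 CPM against 412 to 437 CPM. In the controls Lyz2 had the most reads of these monocyte genes, 4980 to 5893 per heart, against 179 to 224 for Ccr2 and 35 to 51 for Ly6c2. In the EAM hearts Ccr2 averaged 336 CPM and Ly6c2 27.7 CPM of a mean sum of 5126 CPM, so that the sum mostly reflects other genes of the list. The part of neutrophils or monocytes in the Chil3 level was not tested.

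At D21, 2 of the 10 members, Adgre1 and Chil3, were called higher in EAM hearts, and none lower, beside 4.13% of genes called higher and 1.16% called lower over all 15266 tested. Both calls rested on every control heart and on EAM replicates 1, 2 and 4, since leaving out any one of these left no member called, with adjusted p from 0.0112 to 0.0340 and log2 fold changes above 1.5 throughout. With all 8 hearts limma-voom called neither (adjusted p = 0.0152 for each). The D21 direction differed between members: 6 had a log2 fold change below 0 and 4 above, with a median of -0.24 beside -0.01 over all genes. Adgre1 was at 127, 76.3, 44.1 and 122 CPM in the EAM hearts against 27.7, 28.4, 23.1 and 35.2 CPM in the controls, without overlap, and its log2 fold change was 1.71 ± 0.32 (adjusted p = 0.00841). Chil3 was at 23.5, 6.11, 5.92 and 15.1 CPM against 0.96, 0.19, 0.044 and 1.12 CPM. The groups did not overlap, and the log2 fold change was 4.49 ± 0.79 (adjusted p = 0.00724), with control counts of 1 to 22 reads. These 2 members without overlap in the higher direction stand beside 16.5% of all genes tested. Mrc1 was at 135, 92.4, 69.1 and 164 CPM against 77.1, 73.5, 65.2 and 77.8 CPM, so that 1 EAM heart lay within the control range, and its log2 fold change of 0.67 ± 0.24 was not called (adjusted p = 0.0648).

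**Figure D3:**
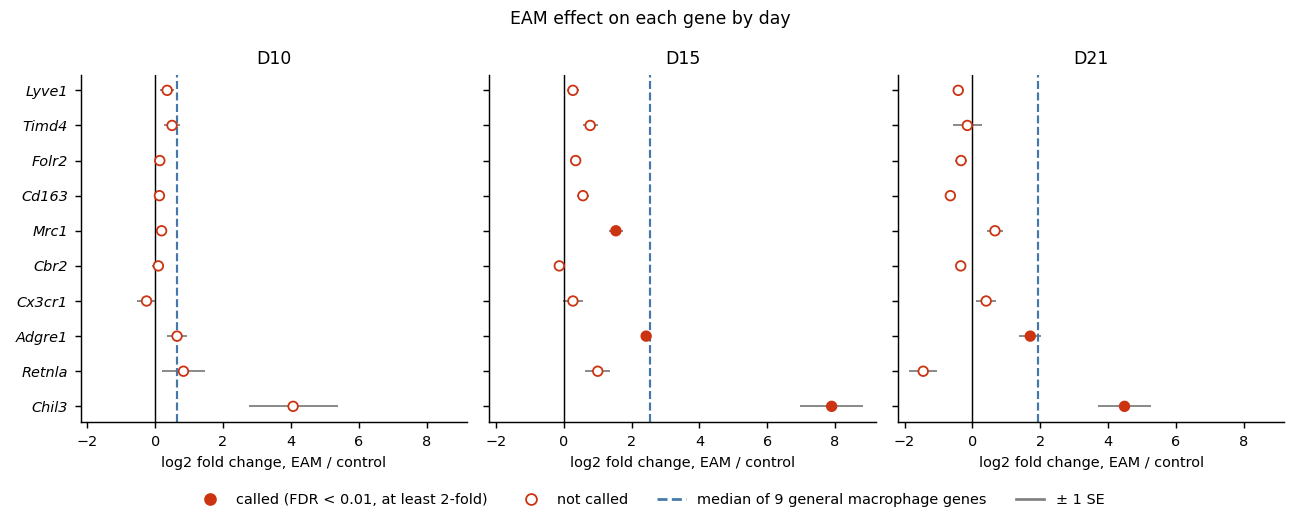
Log2 fold change of EAM against control hearts for each gene at D10, D15 and D21 (edgeR, 4 hearts per group), with bars of 1 SE. Filled points were called and open points were not. The dashed line is the median of 9 general macrophage genes (0.63, 2.54 and 1.93), and at D15 and D21 only Chil3 lies to its right.

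Cd163 and Retnla had the lowest log2 fold changes of the members at D21. Cd163 was at 19.4, 21.5, 21.7 and 17.5 CPM in the EAM hearts against 31.6, 30.3, 29.8 and 35.2 CPM in the controls. The groups did not overlap, and the log2 fold change of -0.65 ± 0.10 passed the false discovery rate (adjusted p = 0.00581) but not the 2-fold threshold. Retnla was at 1.30, 1.96, 3.45 and 0.79 CPM in the EAM hearts against 4.71, 5.12, 3.85 and 6.83 CPM in the controls, again without overlap. Its log2 fold change of -1.45 ± 0.40 was not called (adjusted p = 0.0277), while DESeq2 called it (-1.44, adjusted p = 0.00362), and so did edgeR without EAM replicate 3 (-1.92, adjusted p = 0.00269). The 2 members without overlap in the lower direction stand beside 19.4% of all genes tested.

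The summed level of 6 adipocyte genes was 0.225 to 7.63 CPM in the D21 EAM hearts and 19.3 to 49.5 CPM in the D21 controls. Among these EAM hearts the highest Retnla level, 3.45 CPM in replicate 3, stood beside a sum of 0.651 CPM, and the highest sum, 7.63 CPM in replicate 2, beside 1.96 CPM of Retnla. Of 5 tested, only Plin1, which coats lipid droplets, was called lower (-4.63, adjusted p = 0.0066), and Adipoq, the adiponectin gene, was at a log2 fold change of -4.25 (adjusted p = 0.0104). Lep was at 0 in all 4 EAM hearts. The same list was at 28.3 to 47.3 CPM in the D15 EAM hearts and 13.5 to 42.6 CPM in their controls. The 4 D21 EAM hearts were also those with the separate library code, and the part of adipose tissue in the Retnla level was not tested.

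**Figure D4:**
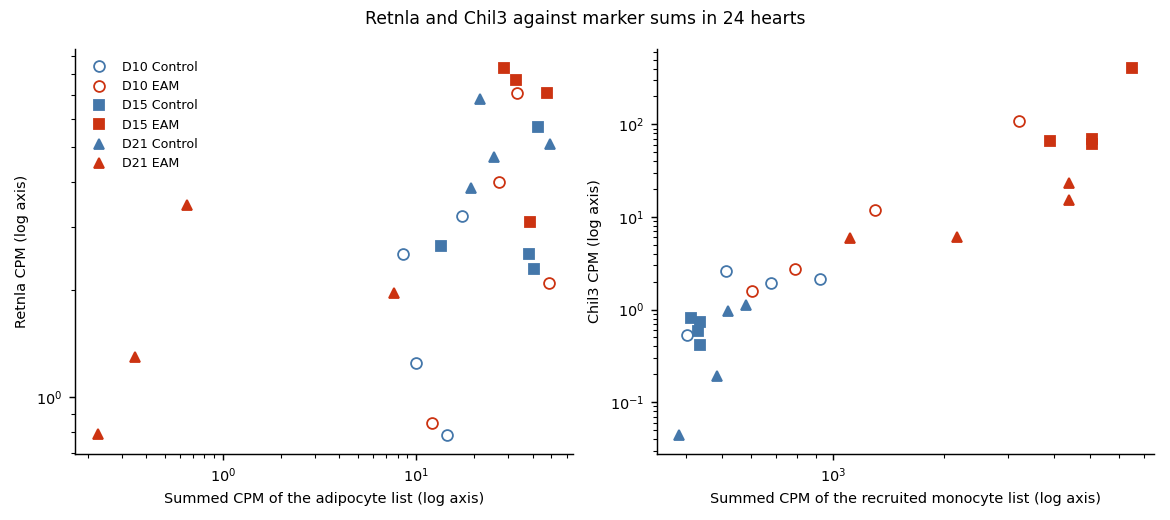
Left, Retnla CPM against the summed CPM of 6 adipocyte genes, and right, Chil3 CPM against the summed CPM of 10 genes of recruited monocytes, both on logarithmic axes, with 1 symbol per heart. On the left 3 of the D21 EAM hearts lie apart at adipocyte sums of 0.225 to 0.651 CPM, and replicate 2, at 7.63 CPM, lies near the lowest D10 control (8.58 CPM). On the right the D15 EAM hearts and D10 EAM replicate 1 (108 CPM of Chil3 at a sum of 3196 CPM) have the highest Chil3 levels. D21 EAM replicates 1 and 4 have larger sums than the latter, 4388 and 4383 CPM, but no more than 23.5 CPM of Chil3.

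The other members at D21 overlapped between groups. Lyve1 was at 22.9, 17.2, 15.0 and 14.6 CPM in the EAM hearts against 22.9, 26.2, 19.7 and 25.2 CPM in the controls (log2 fold change -0.42 ± 0.16, adjusted p = 0.0784). Folr2 had a log2 fold change of -0.33 ± 0.17 (adjusted p = 0.155), Cbr2 of -0.34 ± 0.15 (adjusted p = 0.108), Timd4 of -0.15 ± 0.43 (adjusted p = 0.806) and Cx3cr1 of 0.41 ± 0.29 (adjusted p = 0.287). None of these 5 was called by edgeR, DESeq2 or limma-voom.

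Whether the EAM effect itself changed between time points was tested in a fit of all 24 hearts. Between D10 and D15 it grew for Mrc1, by 1.30 ± 0.30 on the log2 scale (adjusted p = 0.00312), and for Adgre1, by 1.73 ± 0.40 (adjusted p = 0.00286). These 2 of 10 members stand beside 5.38% of 16318 genes called in that direction, and 7.35% in the other. The change of Chil3, 3.79 ± 1.64, was not called (adjusted p = 0.0633), and without D10 EAM replicate 1 it was 6.29 (adjusted p = 5.4e-04). Leaving out each single heart gave 2.60 to 6.29, with an adjusted p of up to 0.167. Between D15 and D21 the effect fell for Cd163, by 1.195 ± 0.24 (adjusted p = 0.00234), beside 0.919% of genes called in that direction and 2.74% in the other. The D15 to D21 change was negative for 9 of 10 members, among them Retnla (-2.43 ± 0.75, adjusted p = 0.0214), Folr2 (-0.67 ± 0.21, adjusted p = 0.0212), Mrc1 (-0.86 ± 0.30, adjusted p = 0.0391), Adgre1 (-0.71 ± 0.40, adjusted p = 0.181) and Chil3 (-3.39 ± 1.93, adjusted p = 0.192). The median over the 10 was -0.79, beside -0.0008 over all genes. In the same comparison the median was -0.96 for the 9 general macrophage genes named further on, -1.51 for 10 genes of recruited monocytes and -1.42 for 7 neutrophil genes, with none of these called. All 5 adipocyte genes tested were called lower, with a median of -3.91. The part of these cells in the changes of the members was not tested. Both changes use the D15 hearts. The change from D15 to D21 also rests on the D21 EAM hearts, so that it cannot be told apart from their separate library code.

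In control hearts, which received adjuvant and toxin without peptide, no member was called between time points. The background was 0.0858% of genes called lower and 0.00613% higher at D15 against D10, 0.0919% and 0.123% at D21 against D10, and 0.0% in both directions at D21 against D15. At an unadjusted p under 0.05, 5 members were lower at D15 than at D10, Lyve1, Folr2, Cd163, Mrc1 and Cbr2, beside 3.24% of all genes. The summed level of the 9 general macrophage genes named further on was 408 to 650 CPM in the D10 controls and 331 to 414 CPM in the D15 controls, with C1qa at -0.64 (unadjusted p = 0.0231), and that of 7 neutrophil genes was 125.5 to 230 CPM and 16.02 to 79.1 CPM. Their part in the 5 differences was not tested. Cbr2 was at 53.3, 53.8, 53.7 and 39.9 CPM in the D10 controls and at 30.4, 36.1, 24.6 and 34.2 CPM in the D21 controls, without overlap. Its difference of -0.69 ± 0.16 on the log2 scale had an adjusted p of 0.0400, and that of Lyve1, -0.55 ± 0.20, of 0.225. Retnla went the other way, at 2.52, 3.20, 0.78 and 1.25 CPM in the D10 controls and at 4.71, 5.12, 3.85 and 6.83 CPM in the D21 controls (1.38 ± 0.54, adjusted p = 0.269). The sum of 6 adipocyte genes was also higher in the D21 controls, at 19.3 to 49.5 CPM against 8.58 to 17.2 CPM without overlap, with Adipoq at 1.13 (adjusted p = 0.411) and Retn at 1.15 (adjusted p = 0.449), and its part in the Retnla level was not tested. Limma-voom called no member in these comparisons either, nor did DESeq2, which gave no adjusted p for Chil3 in any of them.

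To compare the members with macrophage RNA as a whole, each was divided in every heart by the mean of 9 genes that macrophages in general express (Csf1r, C1qa, C1qb, C1qc, Fcgr1, Mertk, Cd68, Aif1 and Cd14). This list itself was 1.64-fold higher in EAM than in control hearts at D10, where its mean log2 level overlapped between groups (5.37 to 6.72 against 4.72 to 5.48, the highest in EAM replicate 1) and none of its 9 genes was called. It was 6.97-fold higher at D15 and 3.79-fold at D21, and all 9 of its genes were called higher at D15 and 5 of 9 at D21. At D10 the relative levels of the members differed by -0.97 (Cx3cr1) to 1.48 (Chil3) on the log2 scale, and the lowest exact two-sided permutation p among the 10 was 0.114. At D15 and D21 the EAM and control hearts did not overlap for any member, 9 lower and Chil3 higher, each with an exact two-sided permutation p of 0.0286, the smallest that 70 assignments of 4 against 4 hearts allow. Since the list itself rose, the same held for 93.6% of all genes tested in the lower direction at D15 and 88.6% at D21, and for 2.31% and 1.38% in the higher direction, so that the 9 lower members are near the background and no result about the members. At D21, 6 of 10 remained under 0.05 when any one control heart was left out, the others being Cd163, Cbr2, Retnla and Adgre1. Their p was then 0.0571, the next step above 0.0286 that 35 assignments allow. Their log2 differences barely moved: Cd163 ran from -2.624 to -2.497 (-2.576 with all hearts) and Cbr2 from -2.324 to -2.198 (-2.273). Retnla ran from -3.309 to -3.231 (-3.268) and Adgre1 from -0.377 to -0.341 (-0.354). The lost calls thus do not separate these members from the others.

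**Figure D5:**
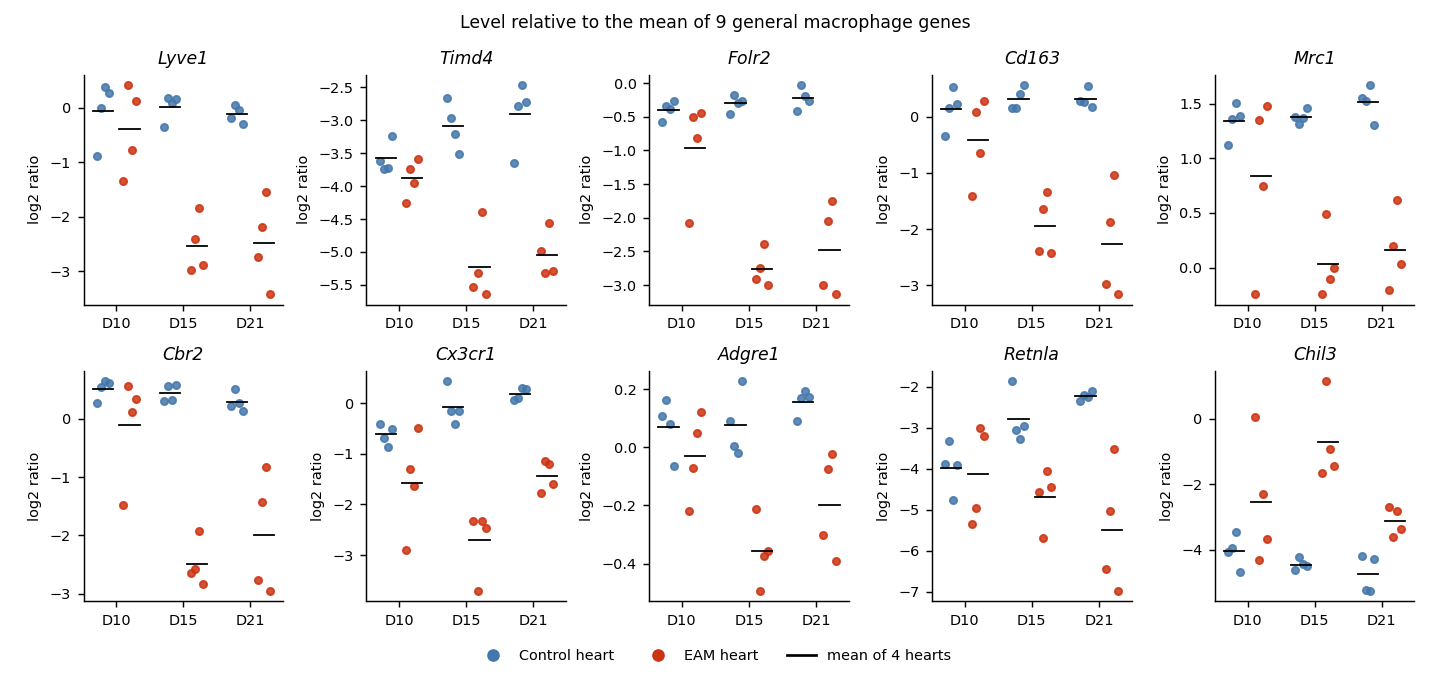
Log2 ratio of each gene's CPM (plus 0.5) to the mean of 9 general macrophage genes, by heart, with controls in blue, EAM in red and a bar at the mean of 4 hearts. The axes differ between panels. At D15 and D21 the EAM hearts lie below the controls in 9 panels, by least for Adgre1 (-0.43 and -0.35), and above them for Chil3.

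The size of this relative difference varied widely among the members. Their median on the log2 scale was -2.203 at D15 and -2.199 at D21, beside -2.80 and -1.95 over all genes tested. At D15 only Cbr2 lay below the median of all genes, and at D21 Lyve1, Timd4, Folr2, Cd163, Cbr2 and Retnla did. At D15 Cbr2 was 7.68-fold lower relative to the list, Cx3cr1 6.18-fold, Lyve1 5.84-fold, Folr2 5.52-fold, Cd163 4.84-fold, Timd4 4.38-fold, Retnla 3.74-fold and Mrc1 2.54-fold, while Chil3 was 13.3-fold higher. At D21 Retnla was 9.64-fold lower, Cd163 5.96-fold, Lyve1 5.14-fold, Cbr2 4.83-fold, Folr2 4.796-fold, Timd4 4.39-fold, Cx3cr1 3.06-fold and Mrc1 2.55-fold, while Chil3 was 3.04-fold higher. Some sizes leaned on single hearts: with 1 heart left out, Retnla at D21 ran from -3.93 to -2.78 and Chil3 at D15 from 3.11 to 4.04 on the log2 scale. Adgre1 followed the list most closely, at 1.35-fold lower on D15 and 1.28-fold lower on D21. Its direction depended on the reference: against Csf1r alone it was -0.08 on the log2 scale at D15 and 0.31, that is higher, at D21. These ratios are on the scale of CPM plus 0.5, which pulls a low gene's own change toward 0. That understates the difference of Chil3 and, at D21, of Retnla, and overstates how far Timd4 and Retnla lay below the list at D15.

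Genes related to the members were read from lists, of which no gene was called at D10. Of 14 other genes of resident-type macrophages, 11 were tested at D15 and 6 were called higher and 1 lower, beside 18.1% and 12.9% of all genes. The 6 were F13a1, Clec10a, Pf4, Stab1, Maf and Ccl8, the last, a chemokine, with the largest log2 fold change (4.09 ± 0.34, adjusted p = 6.5e-06), and the one lower was Fcrls, from 16.3 to 4.86 CPM (-1.75 ± 0.38, adjusted p = 0.00243). At D21, Clec10a and Ccl8 were called higher and Vsig4, a complement receptor of resident macrophages, was lower, from 8.85 to 3.09 CPM (-1.50, adjusted p = 0.0047), beside 4.13% and 1.16% of all genes. The median of the list was 1.34 at D15 and 0.23 at D21, beside 0.02 and -0.01 over all genes.

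Of 14 other genes linked to alternative activation, 11 of 13 tested rose at D15 and 6 of 11 at D21, and none fell, beside 18.1% and 4.13% of all genes called higher. The median of those tested was 4.69 and 2.94, beside 0.02 and -0.01 over all genes. No control heart reached 10 reads for 5 of the 11 and 3 of the 6, which passed the filter through the EAM hearts alone and so had to differ. Among them were Arg1, the arginase that competes for arginine with nitric oxide synthesis, at 192 to 696 CPM in the D15 EAM hearts and 0 to 3 reads in the controls, and Pdcd1lg2, a ligand of an inhibitory T cell receptor, at 23.3 to 45.8 CPM and 0 to 1 reads. Il4ra, the receptor subunit shared by interleukin-4 and interleukin-13, rose by 2.84. The 2 that were tested and not called at D15 were Mgl2, a lectin (0.37, adjusted p = 0.206), and Ccl24, a chemokine for eosinophils (0.84, adjusted p = 0.0561). Among 12 ligands and partners of the members, 6 of 11 tested were called higher at D15, with a median of 1.47: Il13, Hp, Hmox1, Has2, Il33 and Tgfb1. Of these, Il13 passed the filter through the EAM hearts alone. It was at 0 in all 4 D15 control hearts and at a mean of 0.607 CPM in the EAM hearts, whereas Il4 averaged 0.734 CPM with EAM and 0.953 CPM without (adjusted p = 0.316). Has2, which makes the hyaluronan that the Lyve1 product binds, rose by 2.33 on the log2 scale.

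The hearts of one group also differed among themselves, and 14282 genes were ranked by the Pearson correlation of their deviations from the 6 group means with those of each member, over 24 hearts. The hearts share library depth and the degree of inflammation, so the correlations are a description. Adgre1 was most like Clec4a1 (r = 0.973), P2ry6 (0.966) and Tmem106a (0.964), and Chil3 most like Wfdc21 (0.946), Ms4a8a (0.936) and Apoc2 (0.917). Mrc1 was most like Kdelc1 (0.874), Enpp1 (0.866) and Ext1 (0.859), Cx3cr1 most like Mgl2 (0.844), Gpr34 (0.821) and Plppr4 (0.812), and Cbr2 most like Ano10 (0.875), Tm2d1 (0.862) and Coa6 (0.834). For Folr2 they were Nxpe5 (0.815), Dpm3 (0.767) and Rnase4 (0.754), and for Lyve1 Gabarapl1 (0.819), Lsm14a (0.795) and Smarce1-ps1 (0.775). Timd4 was most like Ankrd49 (0.841), Gm2423 (0.806) and Gm7665 (0.802). The values were lowest for Cd163, with Gm6768 (0.715), Gm16439 (0.698) and Hif3a (0.679), and Retnla, with B3galt2 (0.734), Gm7117 (0.718) and Hspb3 (0.707). Among the members, Adgre1 and Chil3 (0.676), Folr2 and Cbr2 (0.656) and Lyve1 and Cd163 (0.653) varied most alike, and Lyve1 and Retnla were the most opposed (-0.538).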

How the data were processed

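RNA from 24 hearts was sequenced as 75 base pairs of reads from a directional polyadenylated RNA library. The authors aligned the reads to GRCm38 with HISAT2 (version 2.0.4), removed duplicates with Picard and deposited raw counts per Ensembl gene from featureCounts; its strand and multi-mapping settings are not given in the sources used here. The members and lists were chosen with earlier results of these data known. The 8 hearts of a time point were fitted with edgeR (4.0.16, R 4.3.3; TMM, quasi-likelihood test, Benjamini-Hochberg over all genes; a gene was kept where 4 or more hearts had 10 or more reads), without a replicate block, after testing the script on simulated data. Changes over time used 1 fit of all 24 hearts. Ratios to 9 general macrophage genes (another listed gene is not reported here) were compared by exact permutation of 70 assignments. All 10 members are named, with up to 2 called genes per direction of each list by D15 fold change and the 3 genes most like each member. Other genes of the lists were named after their values were seen. Alternatives were DESeq2 (1.42.0), limma-voom (3.58.1), other scaling, filters, controls and left-out hearts. Gene positions are from GENCODE and promoters from RefSeq (GRCm38.p6). Promoter entries of Lyve1 and Adgre1 were not analysed here.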

Additional observations from a re-analysis of the deposited data

Results flagged for a closer look

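Among 60 sets of 4 hearts (10 genes in 6 groups), 6 held a heart whose gap to the nearest other heart divided by the range of the set exceeded Dixon's 95% critical value. Chance alone flags about 1 in 20 such sets. Chil3 had 2 of them, at 108 CPM in D10 EAM replicate 1 and 408 CPM in D15 EAM replicate 2. D15 control replicate 1 had the lowest Lyve1 value of its group, 17.3 CPM, and the highest Retnla value, 5.69 CPM. D10 control replicate 4 had the lowest Mrc1 value, 68.3 CPM, and the lowest Cbr2 value, 39.9 CPM. The EAM effect differed between time points for 3 genes in the test of the difference itself: the effects on Mrc1 (1.30 on the log2 scale) and Adgre1 (1.73) were larger at D15 than at D10, and that on Cd163 was lower at D21 than at D15 (-1.195). The change of Cd163 cannot be told apart from the separate library code of the D21 EAM hearts.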

How the results depend on the processing

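The direction and the call of most values held under the other settings run. The counts of called members changed as follows. At D15, where 3 were called, DESeq2 called 2, and leaving out 1 heart gave 3 to 4, the added member being Retnla (1.41 without control replicate 1 and 1.27 without EAM replicate 2, adjusted p = 0.00495 and 0.0035). The change from D10 to D15 was called for 2 to 3 members. With all 12 control hearts as the comparison 1 member was called at D10, Chil3 (5.0, adjusted p = 9.6e-04). At D21 limma-voom called 0 (Adgre1 and Chil3 each had an adjusted p of 0.0152), and leaving out 1 heart gave 0 to 3 members. For the change from D15 to D21, DESeq2 called 2 (Cd163 and Retnla), leaving out 1 heart gave 1 to 2, and the replicate block gave 0 (Cd163, -1.18, adjusted p = 0.0130). Relative to general macrophage genes, leaving out 1 heart gave 6 to 10 members at D21. The lower count arose when a control heart was left out, where the permutation p of the lost members was 0.0571, the next step above 0.0286 that 35 assignments allow. Their ratios barely moved. A sign changed for Timd4 at D21 with 12 control hearts (0.08) and without single hearts (-0.466 to 0.063), for Cbr2 at D10 without single hearts (-0.006 to 0.242), and for Adgre1 at D21 relative to Csf1r alone (0.31). The cause of these changes was not tested, beyond the smaller number of hearts where one was left out. DESeq2 gave no adjusted p for Chil3 at D15, in the comparisons of control hearts and in both changes of effect, so that it is not counted there. With the replicate block Chil3 was called for the change from D10 to D15 (4.71, adjusted p = 0.00608). The numbers were not treated as pairs: correlations of same-numbered hearts were -0.09 to 0.42 at D10, -0.13 to 0.06 at D15 and 0.10 to 0.29 at D21, and every heart correlated best with its own number only among the D21 controls (4 of 4, against 3 of 4 D21 EAM hearts). Depth limits Chil3, at 1 to 47 reads in control hearts, Retnla and Timd4.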
